A study of Homo sapiens with 9 samples.

Results

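The DNA replication and G1/S genes are 39 human genes whose products license replication origins, unwind and copy DNA, supply nucleotides or move the cell from G1 into S phase. They were taken by gene symbol from the deposited table of 60683 genes, in which each symbol matched 1 gene, and all 39 were among the 22672 genes tested. RNA-seq was performed on Hep3B cells, a human hepatocellular carcinoma line, kept for 24 hours in 1 of 3 states with 3 biological replicates each. The states were DMSO vehicle at 20% O2, DMSO vehicle at 1% O2 and 32-134D at 1% O2, where 32-134D is a compound designed to inhibit the hypoxia-inducible factors HIF-1 and HIF-2, and no library was made with 32-134D at 20% O2. The results concern 1 cell line at 1 time, and the p-values measure the spread between these culture samples.

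Replication starts in G1, when the origin recognition complex, CDC6 and CDT1 load the ring-shaped MCM2-7 helicase onto DNA, a step called licensing that geminin (GMNN) blocks by binding CDT1. At S phase entry, cyclin E with CDK2 and the kinase CDC7 start the helicase together with CDC45 and the GINS complex, and the replicative polymerases copy the strands while held to DNA by the sliding clamp PCNA. Most of these genes are known targets of E2F transcription factors, which the retinoblastoma protein family restrains. Hep3B cells are known to lack working retinoblastoma protein.

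Library totals ran from 6013980 to 40549699 counts. All 6 HIF target genes used as a check rose in hypoxia and fell with 32-134D, the carbonic anhydrase CA9 by log2 fold changes of 4.38 and -3.36 and ANGPTL4, a secreted regulator of lipoprotein lipase, by 5.43 and -3.85. The 10 hepatocyte markers were all detected, with albumin at a mean of 9284 CPM, the count scaled to the effective size of its library, in vehicle at 20% O2. None of the 10 was called higher and 2 were called lower in hypoxia, and 1 was higher and 4 lower with 32-134D. APOB changed by log2 fold changes of -3.47 and 3.12, while albumin was at 0.04 and -0.23. Among markers of other cell types, PTPRC had 7 counts over the 9 libraries, and CD3E and VWF had 0. Of 5 leukocyte, 5 endothelial and 5 fibroblast and stellate markers, 2, 1 and 4 had enough counts to be tested. In hypoxia 1, 1 and 3 of them were called lower, and with 32-134D 1, 1 and 4 were called higher. The summed fibroblast and stellate cell list, mostly PDGFRB, was 17.1 to 18.5 CPM in vehicle at 1% O2 against 36.1 to 39.7 CPM in vehicle at 20% O2 and 35.5 to 43.4 CPM with 32-134D. The summed leukocyte list, mostly LYZ, was 7.79 to 10.1 CPM in vehicle at 1% O2 against 23.7 to 30.3 CPM and 12.5 to 21.9 CPM. Their part in the results was not tested. Replicate 3 of 32-134D had a summed hepatocyte level of 12210 CPM against 19152 and 19476 CPM in the other two, so results that turn on it are also given without it.

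Hypoxia raised 13 of the 39 genes and lowered 5, with a call made at an FDR below 0.05 from edgeR and a fold change above 1.5. Among all genes tested, 19.5% were called higher and 20.3% lower in the same comparison. A further 14 members had an FDR below 0.05 but a smaller change. The median log2 fold change of the members was 0.44, and that of all genes tested was 0.00. The summed level of the members was 4051, 4000 and 3989 CPM in the libraries of vehicle at 20% O2 and 4999, 4975 and 4988 CPM in those of vehicle at 1% O2, without overlap. The split of calls rests in part on the scaling. With library totals in place of TMM factors, the median of all genes moved to -0.21, and the members' median lay 0.43 above it. There 8 members were called higher and 7 lower, and of the 22672 genes tested 3081 were called higher and 5848 lower. In bulk samples, fewer cells in a phase of the cell cycle and less RNA per cell cannot be told apart.

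32-134D at 1% O2 lowered 10 members and raised 2 against vehicle at 1% O2, where 13.7% of all genes were called lower and 16.2% higher. The members' median was -0.33 against -0.01 for all genes tested. With library totals, 6 members were lower and 5 higher, and the median of all genes was 0.17. In that fit, 1847 of the 22672 genes tested were called lower and 4755 higher. With trends over transcript length and GC content removed, 8 members were lower and 4 higher, where 2335 of 22251 genes were lower and 3898 higher. The summed level was 4267, 4186 and 3930 CPM with 32-134D. Replicate 3 lay below the 3 libraries of vehicle at 20% O2 and the other two lay above them. This comparison and the hypoxia comparison share the 3 vehicle libraries at 1% O2, so each is given by its own values.

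Between 32-134D at 1% O2 and vehicle at 20% O2, only CDT1 was called, higher, in the edgeR fit of all 9 libraries, where 3.0% of all genes were called higher and 0.516% lower. No member was called lower by edgeR or by DESeq2, and 10 members were higher and 6 lower at an unadjusted p below 0.05. The higher count was 2 with DESeq2, where 700 of 22672 genes were called higher. With edgeR it was 5 without replicate 3 of vehicle at 1% O2, a library outside this comparison. In that fit 800 of 22239 genes were higher, and the median of all genes was 0.05. The count was 3 without replicate 1 or 3 of vehicle at 20% O2 (667 of 22406 and 560 of 22018 genes higher). It was 2 without any 1 of the 32-134D libraries (627 to 764 genes higher). In the fit of all 9 libraries, the members' median was 0.05.

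**Figure D1:**
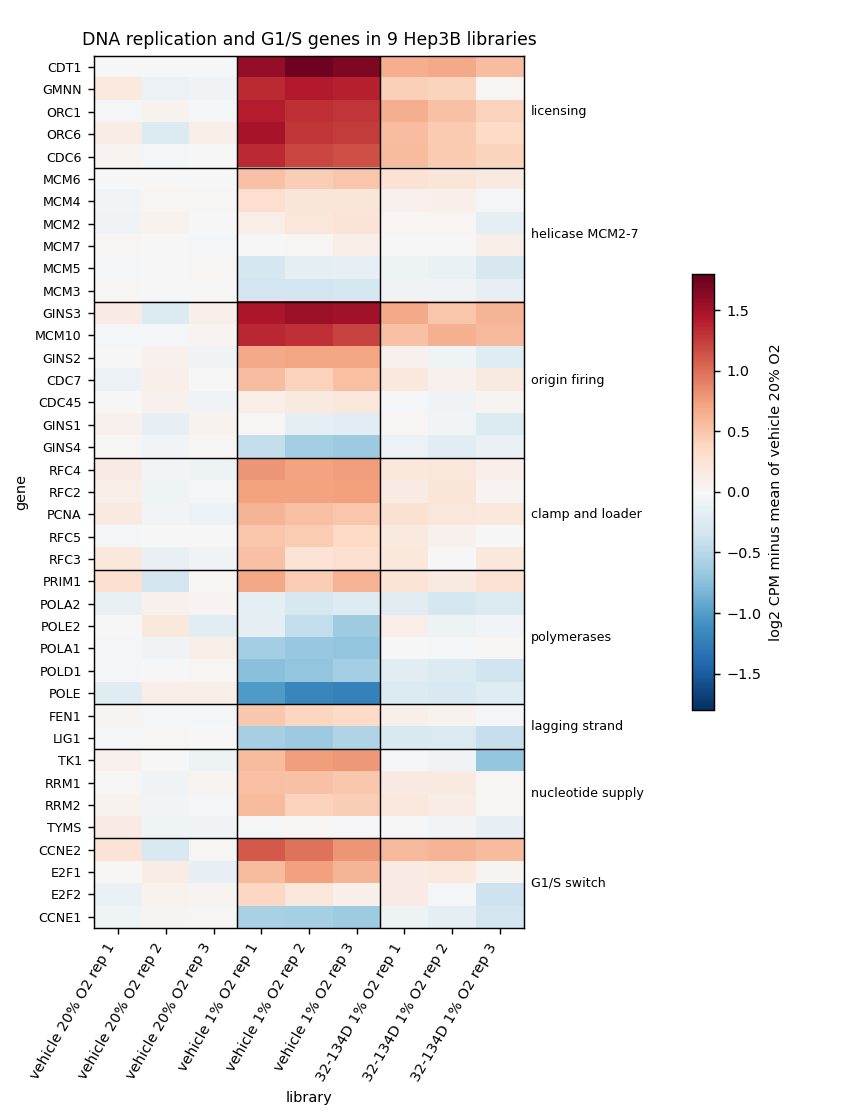
Level of each of the 39 genes (rows, grouped by role) in each of the 9 libraries (columns), as log2 CPM minus the mean of the 3 vehicle libraries at 20% O2, red higher and blue lower. The 5 licensing genes with MCM10 and GINS3 are red throughout the vehicle libraries at 1% O2 and paler with 32-134D, MCM2 to MCM7 stay near white, and POLE, POLD1, POLA1, LIG1, CCNE1 and GINS4 are blue at 1% O2.

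The licensing factors were the role group in which every member was called in both comparisons. CDT1, ORC1, ORC6, CDC6 and GMNN all rose in hypoxia, by log2 fold changes from 1.23 to 1.67, and all fell with 32-134D, by -0.75 to -1.09. Under 17 alternative fits their hypoxia changes stayed between 1.02 and 1.78 and their 32-134D changes between -1.14 and -0.57. Of these calls, that of CDC6 in the 32-134D comparison was lost, with library totals.

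CDT1 (ENSG00000167513, chromosome 16, 88803213 to 88809258 in GRCh38), which brings the helicase to the origin, was 71.9, 72.4 and 72.2 CPM in vehicle at 20% O2, 217, 243 and 231 CPM in vehicle at 1% O2, and 114, 116 and 106 CPM with 32-134D. The 3 groups did not overlap, and 32-134D lay between the vehicles. The log2 fold changes were 1.67 in hypoxia (SE 0.07, FDR 1.43e-10 from edgeR), -1.04 with 32-134D (SE 0.07, FDR 3.07e-08) and 0.64 for 32-134D against vehicle at 20% O2 (SE 0.07, FDR 4.47e-05).

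GMNN (ENSG00000112312, chromosome 6, 24774931 to 24786099), the CDT1 inhibitor, was 117, 96.9 and 99.0 CPM, then 263, 280 and 274 CPM, and 140, 137 and 106 CPM with 32-134D. Vehicle at 1% O2 stood clear of both other groups, while replicate 3 of 32-134D fell within the range of vehicle at 20% O2. Its log2 fold changes were 1.38 and -1.09, the latter -0.98 without replicate 3 of 32-134D. The mRNA of the loader and that of its inhibitor thus both rose in hypoxia, with 0.696 ± 0.0735 counts of CDT1 per count of GMNN at 20% O2, 0.845 ± 0.0202 in hypoxia and 0.888 ± 0.0987 with 32-134D (SD, n = 3).

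CDC6 (ENSG00000094804, chromosome 17, 40287633 to 40304657), the ATPase that works with CDT1, was 88.3, 83.5 and 85.5 CPM in vehicle at 20% O2, 217, 197 and 192 CPM in vehicle at 1% O2, and 127, 119 and 113 CPM with 32-134D. ORC1 (ENSG00000085840, chromosome 1, 52372829 to 52404459), the largest subunit of the origin recognition complex, was 21.7, 23.1 and 21.7 CPM, then 58.8, 55.1 and 53.8 CPM, and 35.0, 31.9 and 29.4 CPM. For both genes the 3 groups were apart and came in the same order. CDC6 changed by 1.23 and -0.75 on the log2 scale and ORC1 by 1.34 and -0.80. ORC6, the smallest subunit, changed by 1.32 and -0.89. Against vehicle at 20% O2, the 32-134D levels of ORC1, CDC6 and ORC6 were higher by log2 fold changes of 0.54, 0.48 and 0.43 (edgeR FDR 0.00125, 8.09e-04 and 0.0174), all under the fold change threshold, and that of GMNN by 0.29 (FDR 0.0923).

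Because the licensing genes moved together, their promoter windows are shown, with those of MCM6 and POLE as members of other roles. Each window runs from 250 bases before to 50 after the transcript start, read 5′ to 3′ on the gene's strand from RefSeq on GRCh38.p14. Capitals mark the E2F words searched, which were TTTCCCGC, TTTCGCGC, TTTGCCGC and TTTGGCGC on either strand, and words on opposite strands may overlap. GMNN has 2 windows, and the one holding a word is printed.
CDC6, chr17:40287629-40287928, plus strand: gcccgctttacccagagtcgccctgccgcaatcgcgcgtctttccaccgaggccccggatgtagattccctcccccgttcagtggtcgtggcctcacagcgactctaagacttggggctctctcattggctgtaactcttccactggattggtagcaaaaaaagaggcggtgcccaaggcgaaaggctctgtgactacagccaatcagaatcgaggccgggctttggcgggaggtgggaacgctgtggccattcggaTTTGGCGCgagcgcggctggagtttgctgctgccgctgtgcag
CDT1, chr16:88803539-88803838, plus strand: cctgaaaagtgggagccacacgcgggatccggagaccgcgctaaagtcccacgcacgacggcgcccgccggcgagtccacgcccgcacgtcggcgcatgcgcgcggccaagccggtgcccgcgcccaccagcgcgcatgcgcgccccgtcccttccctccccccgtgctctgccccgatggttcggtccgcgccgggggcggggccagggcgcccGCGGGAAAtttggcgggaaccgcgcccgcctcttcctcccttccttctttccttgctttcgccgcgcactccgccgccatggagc
GMNN, chr6:24775163-24775462, plus strand: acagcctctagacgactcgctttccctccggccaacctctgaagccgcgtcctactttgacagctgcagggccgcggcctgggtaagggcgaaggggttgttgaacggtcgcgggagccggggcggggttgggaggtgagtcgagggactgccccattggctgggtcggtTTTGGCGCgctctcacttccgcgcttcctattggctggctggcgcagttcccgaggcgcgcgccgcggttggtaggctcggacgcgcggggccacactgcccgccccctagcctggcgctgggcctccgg
ORC1, chr1:52404374-52404673, minus strand: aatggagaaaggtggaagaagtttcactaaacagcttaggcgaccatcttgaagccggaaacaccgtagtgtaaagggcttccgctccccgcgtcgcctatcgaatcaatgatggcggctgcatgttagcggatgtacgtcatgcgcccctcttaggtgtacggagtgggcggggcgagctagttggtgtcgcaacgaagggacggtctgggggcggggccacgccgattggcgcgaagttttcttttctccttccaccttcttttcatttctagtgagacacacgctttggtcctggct
ORC6, chr16:46689409-46689708, plus strand: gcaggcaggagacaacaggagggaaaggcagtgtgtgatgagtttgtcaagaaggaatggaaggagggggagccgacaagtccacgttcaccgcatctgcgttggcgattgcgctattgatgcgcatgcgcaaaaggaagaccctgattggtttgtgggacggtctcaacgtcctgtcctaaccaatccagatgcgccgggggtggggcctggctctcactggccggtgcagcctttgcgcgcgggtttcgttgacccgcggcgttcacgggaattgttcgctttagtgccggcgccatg
MCM6, chr2:135876394-135876693, minus strand: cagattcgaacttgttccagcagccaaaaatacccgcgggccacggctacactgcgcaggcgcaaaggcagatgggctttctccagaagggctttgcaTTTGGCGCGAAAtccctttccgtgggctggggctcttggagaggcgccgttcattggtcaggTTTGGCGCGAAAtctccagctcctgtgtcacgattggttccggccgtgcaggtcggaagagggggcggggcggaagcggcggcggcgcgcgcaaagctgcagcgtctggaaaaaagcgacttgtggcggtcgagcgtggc
POLE, chr12:132687293-132687592, minus strand: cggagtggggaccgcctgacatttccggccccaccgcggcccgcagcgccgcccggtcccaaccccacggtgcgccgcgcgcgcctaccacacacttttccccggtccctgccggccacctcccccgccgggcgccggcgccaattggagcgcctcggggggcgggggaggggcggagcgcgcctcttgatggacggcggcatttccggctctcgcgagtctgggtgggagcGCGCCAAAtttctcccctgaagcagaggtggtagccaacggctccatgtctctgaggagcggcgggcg

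Counted with the start site as base 1 and the base before it as base -1, the first base of the E2F word lay at 8 in CDC6, -35 in CDT1 and -80 in GMNN. The windows of ORC1 and ORC6 did not hold these letters. MCM6, whose change in hypoxia was under the fold change threshold, held 4 words in 2 overlapping pairs, and POLE, which fell, held 1 at -18. Windows were found for 35 of the 39 members, 45 windows in all, and none for MCM4, MCM5, GINS4 and CCNE2. An E2F word stood in 21 of the 45 windows (46.7%) and in 4.57% of the 18311 windows of tested genes. By member, it stood in 6 of the 12 that rose in hypoxia and have a window, 3 of the 5 that fell and 12 of the 18 not called. The core of the hypoxia response element, ACGTG or GCGTG on either strand, stood in 62.2% of the members' windows and 58.4% of those of tested genes. The CCAAT box, CCAAT on either strand, stood in 55.6% against 34.3%. The CHR word TTTGAA on either strand, an element of genes expressed late in the cell cycle, stood in 1 window (2.22%), that of RRM1, against 11% of those of tested genes.

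The MCM2-7 helicase subunits, the cargo that the licensing factors load, were not called in any comparison, by edgeR or by DESeq2. In hypoxia their log2 fold changes ran from -0.34 for MCM3 to 0.49 for MCM6, with 3 higher and 2 lower at an unadjusted p below 0.05. Their median was 0.12 against 0.00 for all genes tested, and -0.10 against -0.21 with library totals. With 32-134D they ran from -0.27 to 0.24, with 1 higher and 3 lower at an unadjusted p below 0.05, and against vehicle at 20% O2 from -0.16 to 0.21, with 1 of each.

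MCM6 (ENSG00000076003, chromosome 2, 135839626 to 135876426) was 178, 180 and 178 CPM in vehicle at 20% O2, 257, 242 and 253 CPM in vehicle at 1% O2, and 214, 207 and 200 CPM with 32-134D. The groups did not overlap, but the hypoxia value of 0.49 (SE 0.06, FDR 1.19e-05 from edgeR), was under the fold change threshold. MCM2 (ENSG00000073111, chromosome 3, 127598223 to 127622436) was 347, 380 and 361 CPM, then 392, 416 and 427 CPM, and 371, 370 and 322 CPM. The highest vehicle library at 20% O2 and the lowest at 1% O2 differed little, and the log2 fold change of 0.18 had an FDR of 0.0539. AC023593.1, on the other strand, covers 22.7% of the MCM2 exons and had 137 counts against 86166 of MCM2. MCM3, whose product sits in the same ring as that of MCM6, was 363, 357 and 355 CPM, then 283, 282 and 287 CPM, and 342, 342 and 322 CPM. The counts of MCM6 per count of MCM3 went from 0.499 ± 0.00868 to 0.882 ± 0.0254 in hypoxia and were 0.618 ± 0.0117 with 32-134D (SD, n = 3), a ratio that no scaling of libraries can alter.

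Among the 7 origin firing factors, GINS3, MCM10 and GINS2 rose in hypoxia and fell with 32-134D. Both GINS2 calls were lost with library totals and with trends over length and GC content removed, and the 32-134D call of MCM10 was lost with library totals. The 4 GINS genes encode the 4 subunits of 1 complex, and their mRNAs differed in direction. GINS3 (ENSG00000181938, chromosome 16, 58295080 to 58406144) was 19.6, 14.9 and 18.7 CPM in vehicle at 20% O2, 48.5, 51.3 and 50.1 CPM in vehicle at 1% O2, and 28.2, 24.9 and 27 CPM with 32-134D. Its groups were apart, with log2 fold changes of 1.47 and -0.90 (FDR 1.27e-08 and 1.89e-06 from edgeR). GINS2 changed by 0.71 and -0.77, while GINS1 was near 0 at -0.12 and 0.03 (FDR 0.322 and 0.820). GINS4 was at -0.57 (FDR 6.48e-05) and 0.43 (FDR 8.74e-04), under the fold change threshold, and was called lower in hypoxia by DESeq2. Counts of GINS3 per count of GINS4 were 0.551 ± 0.0609 at 20% O2, 2.33 ± 0.255 at 1% O2 and 0.916 ± 0.0321 with 32-134D (SD, n = 3). AC009630.2, with 22 counts against 6183, covers 21.2% of the GINS4 exons on the other strand.

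MCM10, a scaffold that helps to start the loaded helicase, changed by 1.29 in hypoxia and -0.71 with 32-134D. Against vehicle at 20% O2 it was at 0.58 (FDR 2.35e-04 from edgeR), just under the fold change threshold. CDC7, the kinase that phosphorylates the MCM ring, was at 0.51 and -0.37 and was not called. CDC45 (ENSG00000093009, chromosome 22, 19479459 to 19520612), which joins MCM and GINS in the moving helicase, was 25.9, 27.6 and 24.9 CPM, then 28.3, 29.3 and 30.1 CPM, and 25.8, 25.1 and 27 CPM. The gap between the vehicle groups was smaller than the range within either, and its changes of 0.17 and -0.17 were not called (FDR 0.109 and 0.104).

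**Figure D2:**
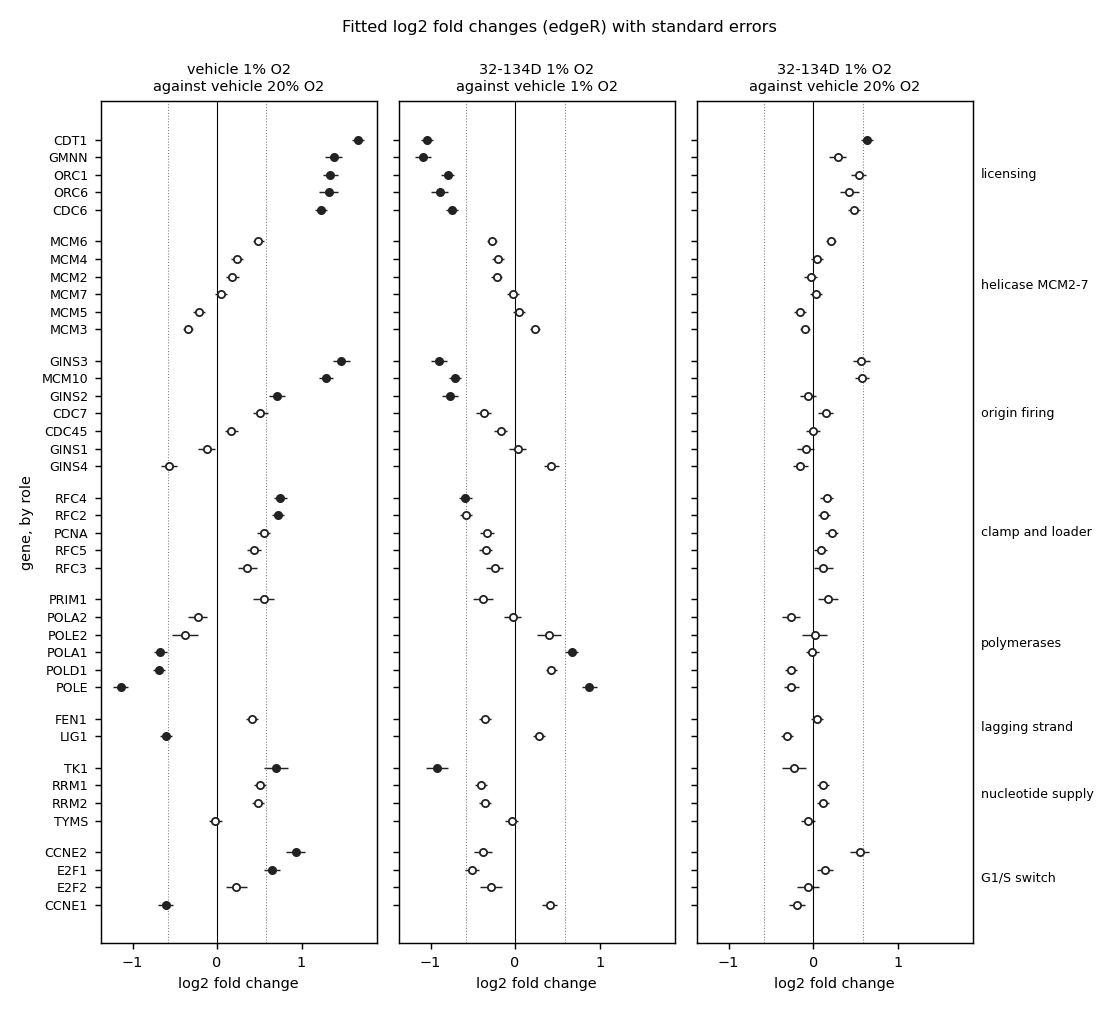
Fitted log2 fold change (horizontal axis) of each gene (vertical axis, by role) in the 3 comparisons, with bars of 1 standard error, filled points for genes past both thresholds and dotted lines at a fold change of 1.5. In hypoxia 13 filled points lie to the right and 5 to the left, with 32-134D 2 to the right and 10 to the left, and against vehicle at 20% O2 only CDT1 is filled.

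The clamp and its loader had smaller values of 1 sign in each comparison. PCNA and the 4 loader subunits RFC2 to RFC5 had log2 fold changes of 0.36 to 0.75 in hypoxia and -0.24 to -0.59 with 32-134D, of which RFC4 and RFC2 were called in hypoxia and RFC4 with 32-134D. None of these 3 calls held with library totals or with trends over length and GC content removed, where RFC3 had the opposite sign in both comparisons (-0.05 and 0.06). RFC4 (ENSG00000163918, chromosome 3, 186789880 to 186807058) was 77.9, 68.5 and 66.1 CPM in vehicle at 20% O2, 122, 117 and 119 CPM in vehicle at 1% O2, and 80.8, 81.2 and 75.1 CPM with 32-134D. Vehicle at 1% O2 stood above both other groups, which overlapped. Its 32-134D change of -0.59 lay at the fold change threshold and was -0.53 to -0.61 with 1 library left out. The call was lost without replicate 1 of vehicle at 20% O2 (-0.53), replicate 1 or 3 of vehicle at 1% O2 (-0.58 and -0.53), or replicate 1 or 3 of 32-134D (-0.55 and -0.56). It was also lost with DESeq2 or RLE scaling, with at least 10 counts required per library and with only the groups compared, so that it held in 6 of 17 alternative fits.

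PCNA (ENSG00000132646, chromosome 20, 5114953 to 5126626) was 172, 148 and 143 CPM, then 236, 223 and 217 CPM, and 186, 177 and 175 CPM. The 3 groups did not overlap. The log2 fold changes of 0.55 (FDR 2.63e-05 from edgeR) and -0.33 (FDR 0.00264) were under the fold change threshold. Per kilobase of exon, PCNA and MCM7 had the highest levels of the members in vehicle at 20% O2, both at 105 CPM per kilobase, and POLA2 the lowest at 2.46. The 3 processed pseudogenes of PCNA in the annotation had 0 counts.

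The catalytic subunits of the replicative polymerases changed in the opposite direction to the licensing genes. POLE, POLD1 and POLA1, the catalytic subunits of polymerases epsilon, delta and alpha, all fell in hypoxia, and POLE and POLA1 rose with 32-134D. POLE (ENSG00000177084, chromosome 12, 132623753 to 132687365), which copies the leading strand, was 190, 238 and 239 CPM in vehicle at 20% O2, 109, 98.3 and 95.2 CPM in vehicle at 1% O2, and 186, 182 and 190 CPM with 32-134D. Vehicle at 1% O2 was below both other groups in each library. The log2 fold changes were -1.14 (SE 0.09, FDR 6.19e-08 from edgeR) and 0.88 (SE 0.09, FDR 1.49e-06), and -0.26 for 32-134D against vehicle at 20% O2 (FDR 0.0845). Both POLE changes were smaller with trends over length and GC content removed, though both calls held. In that fit no polymerase gene lay below -0.80 in hypoxia or above 0.70 with 32-134D. POLA1, which with primase lays the first bases of each new strand, changed by -0.67 and 0.67, with means of 42.9 ± 2.84, 27.1 ± 0.994 and 43.0 ± 0.646 CPM (SD, n = 3). POLD1, which copies the lagging strand, changed by -0.69 in hypoxia, -0.57 and not called after trends over length and GC content were removed, and was at 0.43 with 32-134D.

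The smaller subunits were not called. With library totals, 4 of the 6 polymerase and primase genes were called lower in hypoxia and 3 higher with 32-134D. POLE2 was at -0.38 and 0.40, and POLA2 at -0.23 and -0.03, the latter 0.16 with library totals. PRIM1, the primase catalytic subunit, was at 0.55 in hypoxia and -0.38 with 32-134D, so that within the polymerase alpha and primase complex PRIM1 and POLA1 had opposite signs. AP000944.2, on the same strand, covers 35.1% of the POLA2 exons and had 0 counts.

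Of the 2 enzymes that finish the lagging strand, DNA ligase LIG1 (ENSG00000105486, chromosome 19, 48115445 to 48170603) fell in hypoxia. It was 94.7, 98.1 and 96.4 CPM in vehicle at 20% O2, 63.6, 61.1 and 66.2 CPM in vehicle at 1% O2, and 79.7, 80.5 and 72.3 CPM with 32-134D. The groups did not overlap. The change of -0.60 (FDR 4.50e-06 from edgeR) was near the fold change threshold, and the call was lost, each time at -0.57, without replicate 2 of vehicle at 1% O2, with no filter on low counts and with trends over length and GC content removed. The flap endonuclease FEN1 (ENSG00000168496, chromosome 11, 61792637 to 61797244) was 182, 173 and 172 CPM, then 245, 229 and 225 CPM, and 188, 184 and 173 CPM. Its values of 0.41 and -0.36 were not called, with vehicle at 1% O2 above both other groups.

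Among the enzymes of nucleotide supply, thymidine kinase TK1 alone was called. TK1 (ENSG00000167900, chromosome 17, 78174075 to 78187233), which salvages thymidine, was 162, 155 and 145 CPM in vehicle at 20% O2, 228, 258 and 263 CPM in vehicle at 1% O2, and 151, 147 and 94.7 CPM with 32-134D. Replicate 3 of 32-134D was below every other library, and the other two lay within the range of vehicle at 20% O2. TK1 rose by 0.70 in hypoxia (FDR 4.33e-04 from edgeR) and fell by 0.93 with 32-134D (FDR 4.54e-05), or by 0.74 without that replicate. With library totals the hypoxia call was lost.

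RRM1 and RRM2, the subunits of ribonucleotide reductase, were both higher in hypoxia by less than the threshold, at 0.51 and 0.48, and at -0.40 and -0.36 with 32-134D. RRM2 (ENSG00000171848, chromosome 2, 10120698 to 10131419) was 106, 97.8 and 100 CPM, then 150, 135 and 138 CPM, and 116, 111 and 103 CPM, with vehicle at 1% O2 above both other groups. AC007240.1, which covers 20.2% of its exons on the same strand, had 0 counts. Thymidylate synthase TYMS (ENSG00000176890, chromosome 18, 657604 to 673578), which makes thymidylate de novo, was 116, 98.9 and 100 CPM, then 103, 106 and 102 CPM, and 105, 101 and 94.7 CPM. Its 3 groups overlapped, with log2 fold changes of -0.02, -0.04 and -0.06. ENOSF1, on the other strand, covers 39.1% of the TYMS exons and itself changed by -1.20 and 0.87, so the TYMS values are uncertain unless strand was counted, which the sources used here do not state.

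The genes of the G1/S switch split between the cyclins. CCNE2 and E2F1 rose in hypoxia and CCNE1 fell. None of the 4 was called with 32-134D by edgeR or by DESeq2. By edgeR, 1 was higher and 3 lower at an unadjusted p below 0.05. That absence of calls depends on the setting. With library totals, and with trends over length and GC content removed, 1 of the 4 was called higher. The highest values of the 4 were then 0.60 and 0.61. CCNE1 (ENSG00000105173, chromosome 19, 29811898 to 29824308) was 40.2, 44.0 and 43.3 CPM in vehicle at 20% O2, 28.3, 28.0 and 27.3 CPM in vehicle at 1% O2, and 39.9, 38.1 and 33.3 CPM with 32-134D. CCNE2 (ENSG00000175305, chromosome 8, 94879770 to 94896678) was 28.8, 20.1 and 24.5 CPM, then 52.0, 47.6 and 41.8 CPM, and 36.1, 36.9 and 35.8 CPM. For each cyclin E gene the 3 groups did not overlap, in opposite orders. CCNE1 changed by -0.61 (FDR 2.86e-05 from edgeR), near the fold change threshold and not called with no filter on low counts, and was at 0.41 with 32-134D. CCNE2 changed by 0.93 (FDR 6.23e-06), or 0.52 and not called after trends over length and GC content were removed, and was at -0.38 with 32-134D. Counts of CCNE2 per count of CCNE1 went from 0.579 ± 0.129 to 1.69 ± 0.152 and were 0.984 ± 0.0856 with 32-134D (SD, n = 3). INTS8, on the other strand, covers 37.0% of the CCNE2 exons and changed by 0.85 and -0.61, so the CCNE2 values are uncertain in the same way.

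E2F1 (ENSG00000101412, chromosome 20, 33675683 to 33686404), the activating transcription factor, was 50.4, 54.5 and 44.9 CPM, then 73.7, 83.3 and 75.7 CPM, and 55.2, 56.5 and 51.7 CPM. Vehicle at 1% O2 was above both other groups, which overlapped. Its change of 0.65 (FDR 1.45e-05 from edgeR) was 0.56 and not called without replicate 3 of vehicle at 20% O2, and 0.43 with library totals, where it was not called either. With 32-134D it was at -0.51. E2F2 was at 0.23 and -0.29 and was not called.

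**Figure D3:**
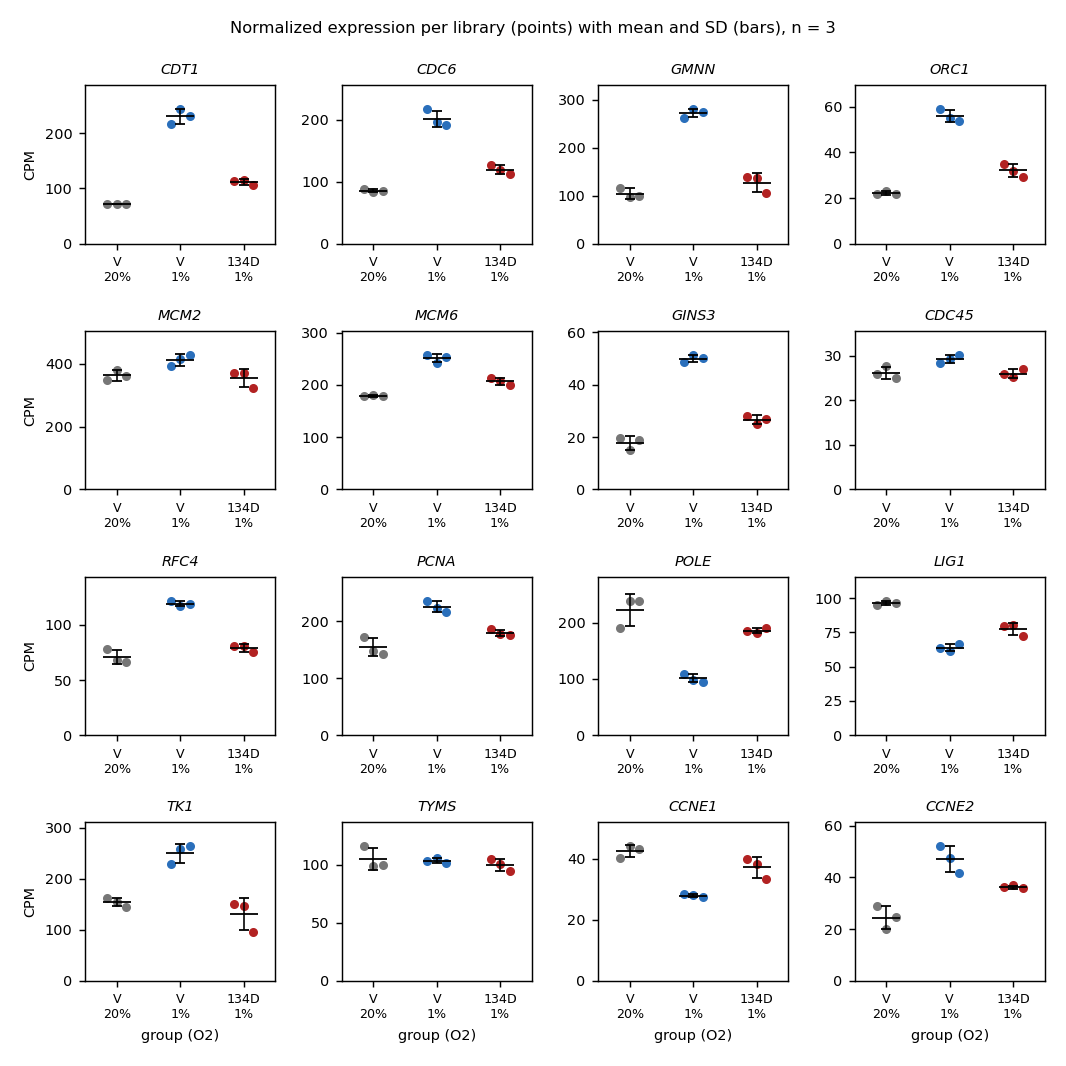
CPM (vertical axes, from 0) of 16 of the genes in vehicle (V) at 20% O2, vehicle at 1% O2 and 32-134D (134D) at 1% O2, with a point per library and bars for the mean with 1 SD, n = 3. CDT1, CDC6, GMNN, ORC1 and GINS3 are highest in vehicle at 1% O2 by a wide margin, POLE, LIG1 and CCNE1 are lowest there, and MCM2, CDC45 and TYMS differ little.

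The balance between roles was also read inside each library, as a ratio of counts that does not depend on how libraries are scaled. These ratios compare groups of libraries for 1 pair of gene sets, not the levels of the sets with each other, and they have no test. The 5 licensing factors together had 0.183, 0.163 and 0.17 counts per count of MCM2 to MCM7 in vehicle at 20% O2, 0.448, 0.449 and 0.421 in vehicle at 1% O2, and 0.248, 0.242 and 0.223 with 32-134D. This ratio, which includes the inhibitor GMNN, was 2.56-fold higher in hypoxia, and the 3 groups did not overlap. POLE had 0.106, 0.13 and 0.133 counts per count of MCM2 to MCM7 at 20% O2, 0.059, 0.0528 and 0.0495 at 1% O2, and 0.102, 0.101 and 0.109 with 32-134D. For POLE the hypoxic ratio was 0.436 times that at 20% O2, and 32-134D overlapped vehicle at 20% O2. The loader subunits RFC2 to RFC5 went from 0.114 ± 0.0084 to 0.17 ± 0.00728 per count of MCM2 to MCM7, and were 0.125 ± 0.00103 with 32-134D (SD, n = 3).

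**Figure D4:**
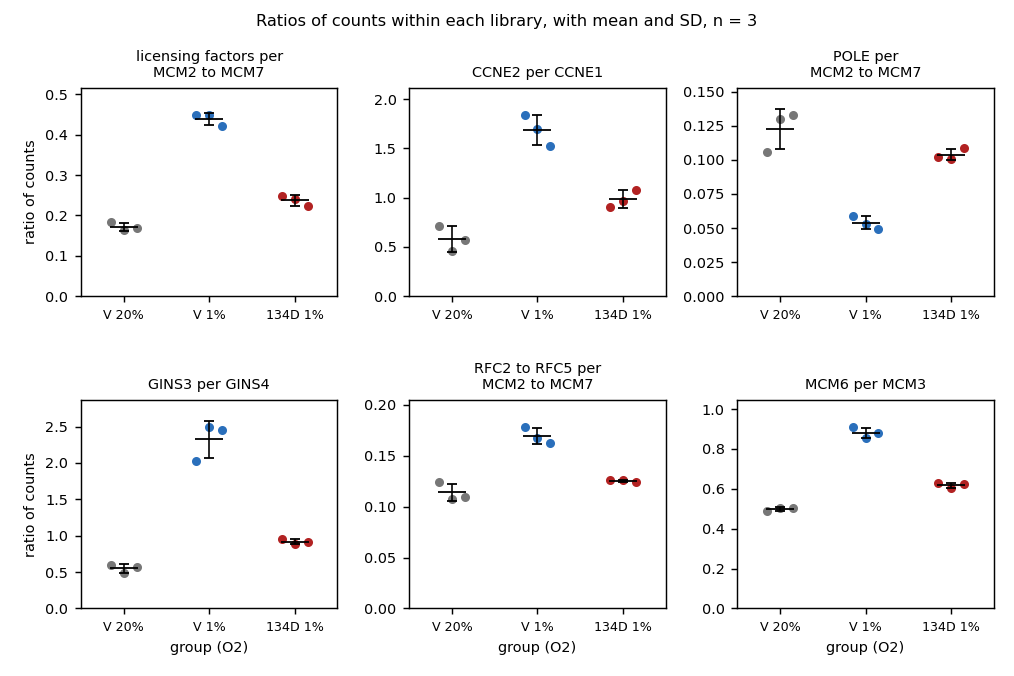
Ratios of counts within each library (vertical axes, from 0) for 6 pairs of genes or gene groups, in vehicle (V) at 20% and 1% O2 and 32-134D (134D) at 1% O2, with a point per library and bars for the mean with 1 SD, n = 3. In all 6 panels vehicle at 1% O2 stands apart from both other groups, below them for POLE and above them for the other 5. The ratio of CDT1 to GMNN is not drawn. There vehicle at 1% O2 (0.826 to 0.866) lay within the range of 32-134D (0.814 to 1). CCNE2 and CCNE1, GINS3 and GINS4, and MCM6 and MCM3 had hypoxia changes of opposite sign, so those ratios moved by construction.

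The 5 genes that fell in hypoxia had a median transcript length of 4102 bases and a median GC content of 55.6%, against 2673 bases and 47.5% for the 13 that rose and 3208 bases and 47.9% for the 21 not called. Across the 39 members, Spearman's rho between length and log2 fold change was -0.34 in hypoxia and 0.37 with 32-134D, against -0.01 and 0.05 across the 22265 tested genes found in the annotation. For GC content it was -0.25 in hypoxia, 0.14 with 32-134D and -0.48 for 32-134D against vehicle at 20% O2, against -0.02, -0.03 and -0.14 across all genes. These are correlations across genes of the same libraries, and genes are not independent replicates. With trends over length and GC content removed from each library, 9 members were higher and 5 lower in hypoxia. In that fit, 3596 of 22251 genes were called higher and 4899 lower. The licensing genes changed by 1.06 to 1.78 and the polymerases had a median of -0.63, where the median of all genes was -0.09. In the main fit these medians were -0.53 and 0.00.

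Related genes outside the 39 were read from the same fit, in 4 lists. For comparison with their counts, 19.5% of all genes tested were called higher in hypoxia and 20.3% lower. With 32-134D, 16.2% of all genes tested were called higher and 13.7% lower. Of 35 other replication factors, 8 rose in hypoxia and 4 fell with 32-134D, with medians of 0.33 and -0.24. None fell in hypoxia by edgeR or by DESeq2, with 5 lower at an unadjusted p below 0.05. With library totals, 5 rose and 2 fell in hypoxia and 1 fell with 32-134D, where 3 fell by DESeq2. With trends over length and GC content removed, 5 rose and 1 fell in hypoxia. With 32-134D, none of the 35 was called after that removal. DSCC1, a subunit of an alternative clamp loader, changed by 1.31 and -0.85, and ORC5 by 0.98 and -0.70. DBF4, the activator of CDC7, was at 0.08 and -0.16. With ORC3 and ORC4 also higher in hypoxia, at 0.60 and 0.92, and ORC2 at -0.34 and not called, 5 of the 6 origin recognition complex genes rose. ORC2, ORC3 and ORC4 were picked after their values were seen.

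In nucleotide synthesis outside the members, 3 of 12 genes rose in hypoxia and 4 fell, and 2 rose and 2 fell with 32-134D, with medians of -0.11 and -0.04. DCK, the deoxycytidine salvage kinase, changed by 1.06 and -0.72. CTPS1, which makes CTP, changed by -1.07 and 0.94, and CAD, which starts de novo pyrimidine synthesis, by -0.95 and 0.94. With library totals, 2 rose and 4 fell in hypoxia, and 3 rose and 1 fell with 32-134D. With trends over length and GC content removed, 2 rose and 4 fell in hypoxia, and both calls that remained with 32-134D were higher.

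Among 22 other G1/S regulators, 7 rose and 2 fell in hypoxia, and 4 fell with 32-134D, with medians of 0.32 and -0.16. In hypoxia, 5 rose and 4 fell with library totals, 6 and 3 with DESeq2, and 5 and 3 with trends removed. None rose with 32-134D by edgeR, with 6 higher at an unadjusted p below 0.05 and 1 called by DESeq2. CKS1B, a partner of CDK2, changed by 1.42 and -1.04, LIN54, a DNA-binding subunit of the DREAM and MuvB complexes, by 1.31 and -0.83, and CDC25A, the phosphatase that activates CDK2, by 1.29 and -0.74. The CDK inhibitor CDKN1B also rose, by 1.09, and fell with 32-134D, by 0.95 on the log2 scale, so an activator and an inhibitor of CDK2 rose together. RB1 rose by 0.61 (FDR 0.0120 from edgeR) from a mean of 2.20 CPM, with 650 counts in all libraries together. RBL1 was at 0.32 and the repressors E2F7 and E2F8 at 0.46 and 0.42, none of them called. LIN9, named after its values were seen, was the 1 gene of this list called for 32-134D against vehicle at 20% O2, at 0.59 (FDR 8.75e-04), a call lost with library totals.

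The 16 G2/M and mitosis genes gave 2 higher and 2 lower in hypoxia and 2 and 2 with 32-134D, with medians of 0.03 and -0.20. With library totals, 1 was higher and 2 lower in hypoxia, and 2 and 1 with 32-134D. With trends removed, 1 was higher and 1 lower in hypoxia, and 1 was higher with 32-134D. CDK1 changed by 1.19 and -0.92, and CENPF, a kinetochore protein, by -1.11 and 0.89. Their summed level was 3167 to 3441 CPM in vehicle at 20% O2, 3047 to 3227 CPM in vehicle at 1% O2 and 2709 to 3165 CPM with 32-134D. Vehicle at 1% O2 overlapped both other groups, and the 32-134D libraries lay below those of vehicle at 20% O2, by little for the nearest pair.

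**Figure D5:**
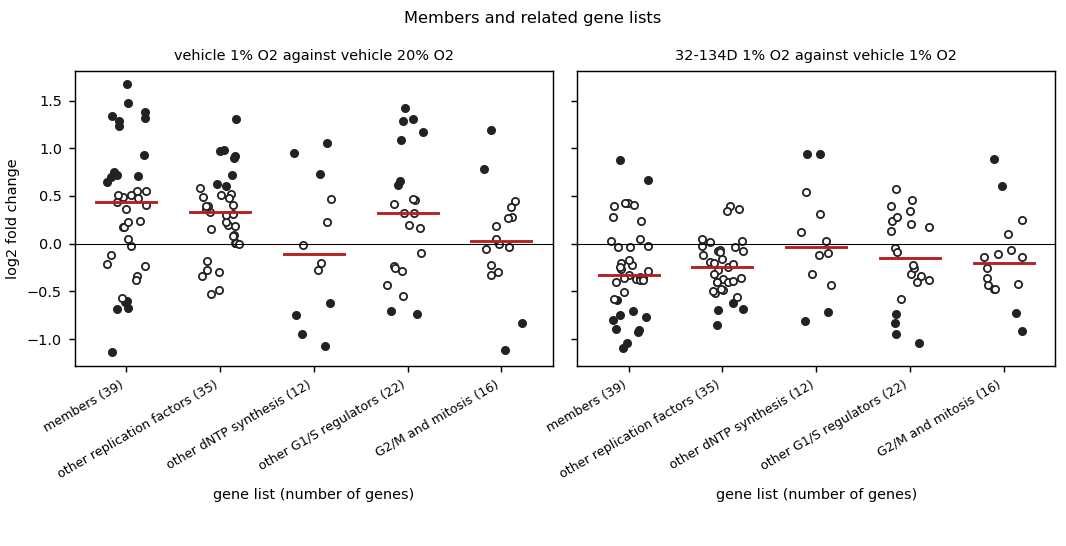
Log2 fold changes (vertical axis) of the 39 members and of 4 related gene lists (horizontal axis, number of genes in brackets) in hypoxia and with 32-134D, with a point per gene, filled where it passed both thresholds, and a red line at the median of the list. The members' median is 0.44 in hypoxia and -0.33 with 32-134D, while the G2/M and mitosis list has medians of 0.03 and -0.20.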

How the data were processed

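RNA-seq was performed on 9 Hep3B libraries, 3 biological replicates in each of 3 groups taken from the sample labels. The authors trimmed reads with Bbduk, aligned them to GRCh38 with STAR and deposited raw gene counts from featureCounts. Tool versions and the strand setting are not given in the sources used here, and the culture medium differs between the labels and the methods. Every column was mapped to a sample (0 unmapped). A single quasi-likelihood fit of all 9 libraries was made in edgeR (version 4.0.16, under R 4.3.3) on TMM-scaled counts, for genes whose counts summed to 10 or more. The Benjamini-Hochberg adjustment ran over 22672 genes. A gene was called where its FDR was under 0.05 and it changed by more than 1.5-fold. The study's methods used DESeq2, run here as an alternative (1.42.0). Fold changes were those of the edgeR fit at its default prior count, and standard errors were the log2 fold change divided by the root of F. A prior count of 2 was used only for log2 CPM values, in the trends over length and GC content and the check of same-numbered replicates. The fits were tested on simulated counts. Library totals ran from 6013980 to 40549699, the common biological coefficient of variation was 10.5%, and low counts limit precision most in the smallest library.

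The members and lists were chosen with earlier results of these data known, so no set test was run. Values in every library are given for the member of each role with the largest change in hypoxia and with 32-134D, for MCM2, CDC6, CDT1, ORC1, CDC45, PCNA, RRM2, TYMS, E2F1, CCNE1 and CCNE2, and for any member called against vehicle at 20% O2. MCM3 was added after its values were seen. Of the other lists, the called genes with the largest changes are named, with RB1, RBL1, E2F7, E2F8, CDC25A and DBF4. Gene coordinates, transcript lengths, GC content and exon overlaps came from GENCODE on GRCh38, which held 22265 of the tested genes. Trends over length and GC content were removed per library by lowess with a span of 0.3. Same-numbered replicates did not deviate together (correlations of -0.032 to 0.005), so no block was used. Alternatives changed the scaling, tool, filter, samples, block, trends or fold change threshold 1 at a time, and left out each library in turn.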

Additional observations from a re-analysis of the deposited data

How the results depend on the processing

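The counts of called members moved by over 1.5 times mainly with the scaling and the fold change threshold. In hypoxia, 8 members were higher with library totals, 23 without a fold change threshold and 7 above 2-fold, and 12 to 14 with 1 library left out. Of all genes, 3081 of 22672 were higher with library totals, and 4013 to 4527 with 1 library left out. Lower members numbered 3 with no filter, 9 without a fold change threshold and 1 above 2-fold, and 4 to 6 with 1 library left out. Of all genes, 4522 of 33284 were lower with no filter, and 3846 to 4816 with 1 library left out. In the main fit, 4412 of 22672 genes were called higher and 4595 lower in hypoxia. A further 3125 passed the FDR but not the fold change threshold. The median of 0.44 was 0.23 with library totals, 0.33 when each library had to reach 10 counts, and 0.20 with trends removed, and 0.38 to 0.47 with 1 library left out. Measured from the median of all genes in the same fit, it lay 0.44 above in the main fit. It lay 0.43 above with library totals, 0.34 above with that filter and 0.30 above with trends removed. With 32-134D, 5 members were higher with library totals, 4 with trends removed, 8 without a fold change threshold, 0 above 2-fold and 2 with any 1 library left out. Of all genes, 4755 of 22672 were higher with library totals, 3898 of 22251 with trends removed and 3311 to 3912 with 1 library left out. Lower members numbered 6 with library totals, 23 without a fold change threshold, 2 above 2-fold and 9 to 11 with 1 library left out. Of all genes, 1847 of 22672 were lower with library totals, and 2453 to 3144 with 1 library left out. In the main fit, 3675 of 22672 genes were called higher and 3100 lower. A further 3986 passed the FDR but not the fold change threshold. The median of -0.33 was -0.14, -0.23 and -0.11 under the same 3 settings as in hypoxia, and -0.33 to -0.27 with 1 library left out. Measured from the median of all genes, it was -0.32 in the main fit and -0.31, -0.23 and -0.19 under those 3 settings. Against vehicle at 20% O2, 2 members were higher with RLE scaling, 2 with DESeq2, 3 with no filter, 8 without a fold change threshold, 0 above 2-fold and 1 to 5 with 1 library left out, and 2 were lower without a fold change threshold. Of all genes, 713 of 22672 were higher with RLE scaling, 700 with DESeq2 and 533 to 800 with 1 library left out. With no filter 865 of 33284 were higher. In the main fit, 1526 of 22672 genes passed the FDR but not the fold change threshold. The cause of these shifts was not tested, except that a threshold on fold change by its construction sets how many genes pass.

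With the replicate number as a block, 13 members were higher and 5 lower in hypoxia, 2 and 11 with 32-134D, and 1 and 0 against vehicle at 20% O2. Of 22672 genes tested, 4296 were higher and 4375 lower in hypoxia, and 3474 and 3012 with 32-134D. Against vehicle at 20% O2, 659 were higher and 126 lower. The replicate numbers do not pair the samples.

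The changes of sign fell on members that were not called, among them RFC3 at 0.36 in hypoxia and -0.24 with 32-134D. In hypoxia they were MCM2 (-0.03), MCM7 (-0.16) and CDC45 (-0.05) with library totals, MCM7 (-0.06) with the same stricter filter, CDC45 (-0.02) and RFC3 (-0.05) with trends removed, and TYMS (0.00) with no filter. With 32-134D, MCM7, CDC45, POLA2 and TYMS were 0.17, 0.02, 0.16 and 0.15 with library totals, and MCM7, CDC45, RFC3, POLA2 and TYMS were 0.06, 0.04, 0.06, 0.04 and 0.21 with trends removed. MCM7, POLA2 and TYMS were 0.04, 0.03 and 0.02 with RLE scaling or DESeq2, 0.07, 0.06 and 0.05 when each library had to reach 10 counts, and 0.04, 0.04 and 0.02 with only the groups compared. Against vehicle at 20% O2, CDC45 was 0.01 with RLE scaling and 0.02 with DESeq2, no filter or trends removed, and POLA1 was 0.01 with RLE scaling or no filter and 0.00 with DESeq2. POLE2 was -0.01 with library totals and -0.03 with trends removed, where MCM2 was 0.03, MCM4 -0.00 and E2F2 0.01.

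With 1 library left out, the sign changed in hypoxia for MCM7 (-0.00 to 0.07). With 32-134D it changed for MCM5 (-0.00 to 0.15), MCM7 (-0.06 to 0.08), POLA2 (-0.06 to 0.04) and TYMS (-0.05 to 0.02). Against vehicle at 20% O2 it changed for MCM2 (-0.07 to 0.03), MCM7 (-0.01 to 0.09), CDC45 (-0.04 to 0.05), GINS2 (-0.13 to 0.01), POLA1 (-0.03 to 0.05), POLE2 (-0.10 to 0.09), TYMS (-0.10 to 0.02) and E2F2 (-0.17 to 0.06). Each of the 31 calls kept its direction under the 17 alternative fits. POLE2, with 1995 counts over all libraries, was the member with the fewest counts.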
